A study of Mus musculus with 12 samples.

Results

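Vitamin D acts through a nuclear receptor, and 10 genes of its receptor, metabolism, uptake and targets were followed in the anterior prostate of APT121 and wild type mice. The genes were given by name (Vdr, Rxra, Cyp24a1, Cyp27b1, Cyp27a1, Cyp2r1, Lrp2, Cubn, Igfbp3 and Trpv6), with earlier results of these data known. Of these 10, 9 were measured among 19935 genes, each by 1 transcript cluster (the probe set that reads a whole transcript), and Cyp24a1 is not analysed here. APT121 mice express T121, a fragment of the SV40 large T antigen that inactivates pRb and its relatives, from a prostate epithelial promoter of the probasin gene, and the labels describe their tissue as prostatic intraepithelial neoplasia (PIN). Both groups were males of the F3 generation of a mixed C57BL/6J and DBA/2 cross, killed at 12 weeks of age after eating the AIN93G semi-purified diet from 3 weeks of age, and wild type mice did not carry the transgene. Each array, of the Affymetrix Mouse Gene 1.0 ST type, received the combined RNA of 2 mice. There were 4 such pools from 8 APT121 mice and 8 from 16 wild type mice.

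The active hormone, calcitriol, is made from vitamin D in a pair of hydroxylations by cytochrome P450 enzymes. Cyp2r1 and Cyp27a1 can carry out the first, Cyp27b1 carries out the second, and Cyp24a1 breaks the hormone down. Calcitriol binds the vitamin D receptor (Vdr), which pairs with the retinoid X receptor (Rxra) on DNA and regulates genes of calcium transport, growth and differentiation. Megalin (Lrp2) and cubilin (Cubn) take up the protein that carries vitamin D in blood, best known from the kidney. In cultured human prostate cells calcitriol is known to slow growth and to raise IGFBP3, and TRPV6, an epithelial calcium channel, is a vitamin D target in gut and is known from human prostate cancer.

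Prostate markers were read in both groups. Pbsn, the probasin gene, averaged 9.53 ± 0.58 in APT121 and 12.79 ± 0.07 in wild type on the log2 intensity scale, and Tgm4, a transglutaminase of the prostate secretion, 11.17 ± 1.05 in APT121 and 13.91 ± 0.05 in wild type (SD, n = 4 and 8). Of the other 2 secretory markers, Msmb rose (13.20 to 13.56 in APT121 and 5.12 to 12.04 in wild type, adjusted p = 5.73e-04) and Spink1 differed by -0.68 (adjusted p = 0.154). Median intensities of the arrays lay between 32.1 and 33.7, and precision depends on how many arrays there are and on the spread between them. Several marker lists moved with genotype. The summed intensity of 7 seminal vesicle markers (log2) was 10.60 to 14.13 in APT121, and 6.47 to 7.55 in 7 of the wild type arrays with 13.95 in wild type array 6. Of these 7 markers Svs2, Svs5 and Pate4, which carry the sum, passed as higher in APT121, while Svs4 (1.94, adjusted p = 0.0886), Svs3a (-0.48, adjusted p = 0.492), Svs3b (-0.64, adjusted p = 0.334) and Svs6 (-0.46, adjusted p = 0.371) did not. Svs3a, Svs3b and Svs6 reached at most 2.89, 3.61 and 3.26 in APT121, against 6.45, 6.97 and 5.86 in wild type array 6. The sum of 7 myeloid markers was 9.98 to 10.89 in APT121 and 9.14 to 9.42 in wild type. That of 5 luminal markers was 13.28 to 13.36 in APT121 and 12.75 to 12.94 in wild type. Of these Krt8, Foxa1 and Epcam passed as higher in APT121, while Hoxb13 fell (-0.57, adjusted p = 4.60e-06) and Krt18 did not pass (-0.038, adjusted p = 0.589). Smooth muscle (12.68 to 13.11 in APT121 and 13.41 to 13.62 in wild type), fibroblast (10.78 to 11.55 in APT121 and 11.78 to 12.02 in wild type), endothelial (8.24 to 8.40 in APT121 and 8.77 to 8.99 in wild type) and basal markers (7.70 to 8.65 in APT121 and 9.10 to 9.48 in wild type) were lower in APT121. Markers of cycling cells summed to 11.85 to 12.29 in APT121 and 8.92 to 9.35 in wild type, and lymphocyte markers to 6.80 to 7.10 in APT121 and 6.47 to 6.67 in wild type. Of the lymphocyte markers Cd3g (1.59) and Cd3e (0.24) passed as higher in APT121 and Ms4a1 fell (-0.29, adjusted p = 0.00105). Cd79a, Cd8a and Cd4 did not pass. Adipose markers were at 7.15 to 7.50 in APT121 and 7.37 to 9.05 in wild type, highest in wild type array 7. The part of these shifts in the results below was not tested, also where marker values are given beside a gene. In bulk tissue fewer cells of a type and less RNA per cell cannot be told apart.

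The stretches of 250 bases upstream of the transcription start are shown for the 5 genes that passed the test described below. They were taken from RefSeq (GRCm38.p6), which had an entry for each of the 9 measured genes, and run 5′ to 3′ on the gene's strand. They lie at chr15:97908297-97908546 (minus strand) for Vdr, chr2:27676951-27677200 (plus strand, the more upstream of 2 listed starts) for Rxra, chr1:74713285-74713534 (plus strand) for Cyp27a1, chr11:7213924-7214173 (minus strand) for Igfbp3 and chr6:41636406-41636655 (minus strand) for Trpv6. Those of Vdr and Trpv6 end at the outer bound of the RefSeq gene, and the other 3 lie inside it, upstream of the start that the table uses. Capitals mark GGGCGG, the GC box bound by Sp1-type factors, and AGGTCA, the core sequence bound by many nuclear receptors, on either strand (read as CCGCCC and TGACCT on the other).
Vdr: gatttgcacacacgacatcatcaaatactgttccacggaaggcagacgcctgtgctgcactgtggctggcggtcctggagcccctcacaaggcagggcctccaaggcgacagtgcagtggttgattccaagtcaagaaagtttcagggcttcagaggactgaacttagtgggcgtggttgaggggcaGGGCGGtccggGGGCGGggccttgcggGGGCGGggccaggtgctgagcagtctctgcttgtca
Rxra: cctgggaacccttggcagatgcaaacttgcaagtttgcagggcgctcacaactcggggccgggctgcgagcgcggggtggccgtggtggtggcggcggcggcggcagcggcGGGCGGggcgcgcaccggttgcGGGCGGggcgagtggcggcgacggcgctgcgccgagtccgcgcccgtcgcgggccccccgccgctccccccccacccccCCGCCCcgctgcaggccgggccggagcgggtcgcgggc
Cyp27a1: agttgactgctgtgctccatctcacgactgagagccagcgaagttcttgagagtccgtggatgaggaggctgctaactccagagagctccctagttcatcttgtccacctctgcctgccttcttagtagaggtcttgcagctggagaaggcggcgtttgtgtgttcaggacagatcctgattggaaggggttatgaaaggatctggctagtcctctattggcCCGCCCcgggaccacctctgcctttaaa
Igfbp3: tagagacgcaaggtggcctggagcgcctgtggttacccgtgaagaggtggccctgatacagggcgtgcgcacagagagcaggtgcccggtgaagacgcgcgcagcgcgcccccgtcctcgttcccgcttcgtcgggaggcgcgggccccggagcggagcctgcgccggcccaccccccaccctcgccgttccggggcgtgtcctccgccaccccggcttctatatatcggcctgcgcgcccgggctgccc
Trpv6: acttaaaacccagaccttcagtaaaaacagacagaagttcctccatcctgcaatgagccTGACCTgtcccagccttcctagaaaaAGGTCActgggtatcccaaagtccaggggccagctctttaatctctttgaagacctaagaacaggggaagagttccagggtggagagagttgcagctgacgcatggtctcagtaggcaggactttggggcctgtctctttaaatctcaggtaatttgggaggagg

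The sequences of the receptor genes carried 3 GC boxes each and that of Cyp27a1 carried 1, while those of Igfbp3 and Trpv6 carried none. Of 32851 such windows in the RefSeq table, 32.7% held a GC box. Trpv6 held AGGTCA 2 times, once on each strand, in a window type of which 14.0% hold it. No marked motif overlapped another. The DR3 vitamin D response element, searched by the pattern of its repeats on both strands, was in none of the windows of the measured genes and in 0.0396% of all windows, and the E2F sequences TTTGGCGC and TTTCGCGC were in none of them and in 0.417% and 0.256% of all windows. These matches describe the letters of these windows only.

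The comparison of APT121 with wild type asks how vitamin D genes differ in prostate that carries PIN. Of the 9 measured genes, 5 passed the test, 4 higher and 1 lower in APT121. Vdr and its partner Rxra rose, Cyp27a1 rose the most and Trpv6 rose with wide spread, while Igfbp3 fell. Cyp2r1, Cyp27b1, Lrp2 and Cubn did not pass. Differences are APT121 minus wild type in log2 intensity ± SE, with adjusted p-values from limma over all genes and a threshold of 0.05. Since 52.8% of all genes passed (22.8% higher and 30.0% lower), a count of 5 of 9 is near the background and is not a result about these genes as a set. Their median difference was 0.060, and that of all genes was -0.095. The groups did not overlap for 4 of the 9 (34.6% of all genes), 3 of them higher (17.7% of all genes) and 1 lower in APT121 (16.9% of all genes). At least 2-fold rises past the test were found for 2 of the 9, Vdr and Cyp27a1 (5.73% of all genes), and such falls for none (1.95% of all genes). Vdr was close to this limit, with a log2 difference of 1.03 as deposited. It fell below 2-fold after median centring (0.98) and after a repeated quantile normalisation (0.92), and still passed the test in both.

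**Figure D1:**
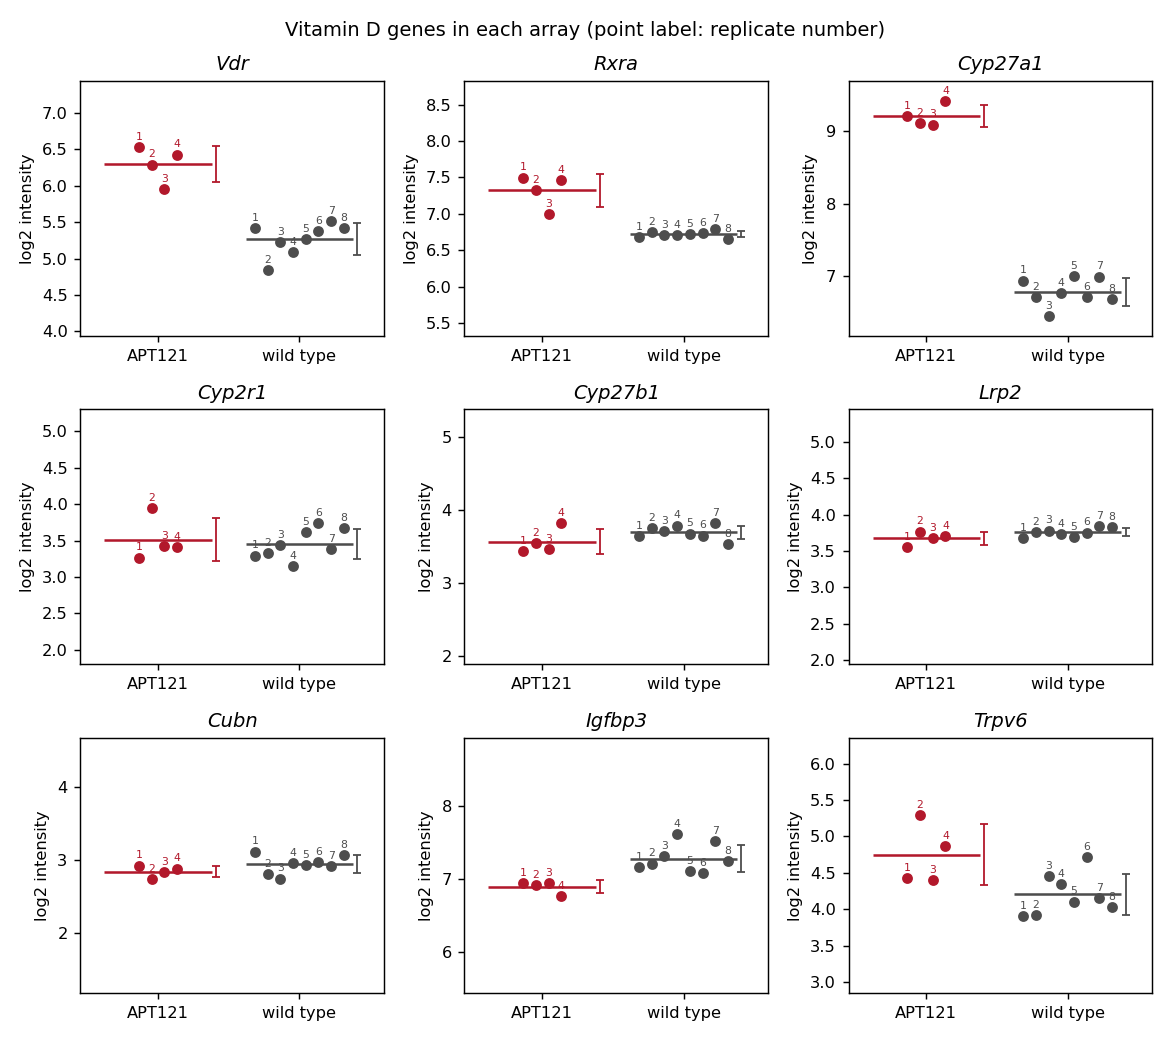
Log2 intensity of the 9 measured vitamin D genes in each array, with APT121 (4 arrays) left of wild type (8 arrays) in every panel; points are arrays labelled by replicate number, horizontal lines are means, bars are SD, and all panels span the same number of log2 units. The groups are apart for Vdr, Rxra, Cyp27a1 and Igfbp3 and overlap for the other 5 genes.

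The receptor gene Vdr (transcript cluster 10432032) had log2 intensities of 6.53, 6.29, 5.96 and 6.43 in APT121 arrays 1 to 4, against a lowest value of 4.84, a median of 5.33 and a highest value of 5.52 in wild type arrays. Every APT121 array lay above every wild type array. Vdr averaged 6.30 ± 0.25 in APT121 and 5.27 ± 0.22 in wild type (SD, n = 4 and 8), a 2.05-fold difference (1.03 ± 0.12, 95% interval 0.77 to 1.29, adjusted p = 3.21e-06). Of all genes, 5.57% had a difference at least as high. The wild type mean of Vdr stood at percentile 48.4 of all genes and the APT121 mean at percentile 59.8.

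Rxra (10470446), which encodes the partner with which Vdr binds DNA, was at 7.50, 7.33, 6.99 and 7.46 in APT121 arrays 1 to 4, against 6.65 (lowest), 6.72 (median) and 6.79 (highest) in wild type. The wild type arrays lay within a narrow band and all APT121 arrays stood above it. The means were 7.32 ± 0.23 in APT121 and 6.72 ± 0.04 in wild type, a 1.52-fold difference (0.60 ± 0.08, 95% interval 0.43 to 0.77, adjusted p = 1.30e-05). Its size depended on scaling, with 0.43 after a repeated quantile normalisation, and the call held there (adjusted p = 2.22e-04). The 4 APT121 arrays stood in the same order for Vdr and Rxra, with array 1 highest, then arrays 4, 2 and 3.

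Cyp27a1 (10347481), the mitochondrial sterol hydroxylase that also acts in bile acid synthesis, showed the widest gap. Its values were 9.20, 9.11, 9.08 and 9.41 in APT121 arrays 1 to 4, against 6.46 (lowest), 6.75 (median) and 7.01 (highest) in wild type. The lowest APT121 array thus exceeded the highest wild type array by far more than either group's spread, which was 0.15 in APT121 and 0.19 in wild type (SD). The means of 9.20 in APT121 and 6.79 in wild type gave a 5.32-fold difference (2.41 ± 0.10, 95% interval 2.20 to 2.62, adjusted p = 1.31e-11). This rise ranked 254 of 19935 genes, so that 1.27% of genes rose at least as much, and the mean moved to percentile 94.1 in APT121 against percentile 68.3 in wild type. Macrophages also express Cyp27a1, and beside its rise 6 of 7 myeloid markers rose. Among them were Adgre1 (0.88 ± 0.18) and Cd68 (0.96 ± 0.16), which serve as macrophage markers, and Ctss rose the most (1.91 ± 0.10). The groups overlapped for Cd68, Csf1r (0.23, adjusted p = 0.0339) and Lyz2 (0.58, adjusted p = 0.0490). Itgam also overlapped and did not pass (0.12, adjusted p = 0.272). The summed myeloid markers were 10.51, 10.37, 10.89 and 9.98 in APT121 arrays 1 to 4, and their part in the rise of Cyp27a1 was not tested.

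Cyp2r1 (10567086), the microsomal enzyme regarded as the main one of the first step, gave 3.27, 3.95, 3.43 and 3.41 in APT121 arrays 1 to 4, against 3.15 (lowest), 3.41 (median) and 3.74 (highest) in wild type. APT121 array 2 was the highest of all 12 arrays and the rest of APT121 lay inside the wild type range. The difference was 0.060 ± 0.13 (95% interval -0.21 to 0.33, adjusted p = 0.703). The interval of Cyp27a1, the other enzyme of that step, does not reach that of Cyp2r1, and the difference between the 2 changes was not tested.

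Cyp27b1 (10366803), the enzyme that makes calcitriol, was at 3.44, 3.54, 3.46 and 3.82 in APT121 arrays 1 to 4, against 3.53 (lowest), 3.69 (median) and 3.81 (highest) in wild type. Arrays 1 and 3 lay below all wild type arrays and array 4 lay just above all of them. The difference was -0.13 ± 0.08 (95% interval -0.30 to 0.037, adjusted p = 0.173) with all arrays. Without APT121 array 4 the gene passed at -0.21 (adjusted p = 0.0246), so 1 array decided the call.

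Neither uptake receptor passed. Lrp2 (10483439) averaged 3.67 ± 0.09 in APT121 and 3.76 ± 0.06 in wild type, with a difference of -0.084 ± 0.060 (95% interval -0.21 to 0.044, adjusted p = 0.251). Cubn (10480155) averaged 2.84 ± 0.08 in APT121 and 2.94 ± 0.12 in wild type, with a difference of -0.098 ± 0.075 (95% interval -0.26 to 0.061, adjusted p = 0.279). The APT121 values ran from 3.55 to 3.77 for Lrp2 and from 2.74 to 2.92 for Cubn, against 3.68 to 3.84 and 2.74 to 3.12 in wild type, so the groups overlapped for both. The wild type means of Cyp2r1, Cyp27b1, Lrp2 and Cubn stood at percentiles 18.2, 22.8, 23.9 and 8.45 of all genes. Detection calls were not used, so signal over background is not established for these 4 genes, and near background a true change appears smaller than it is.

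**Figure D2:**
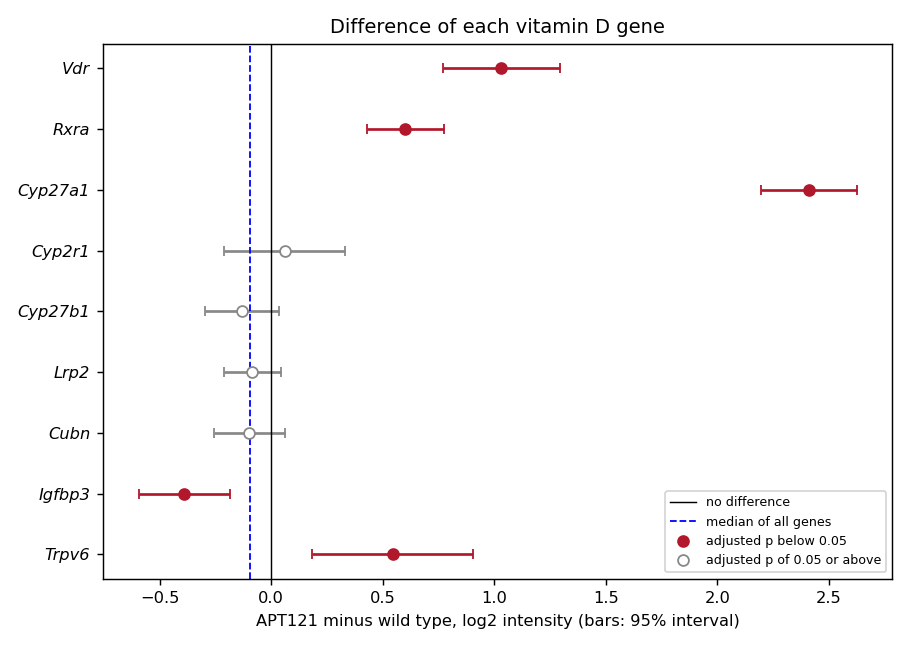
Difference of each measured vitamin D gene, APT121 minus wild type in log2 intensity, with 95% intervals from limma (4 APT121 and 8 wild type arrays); filled red points passed an adjusted p of 0.05, and the dashed line is the median of all genes at -0.095. Cyp27a1 stands at 2.41, Vdr at 1.03, Rxra at 0.60 and Trpv6 at 0.55, Igfbp3 at -0.39, and the intervals of the other 4 genes cover 0.

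Igfbp3 (10384223), which encodes a secreted protein that binds insulin-like growth factors and holds back their action, was the gene that fell. It was at 6.94, 6.91, 6.94 and 6.76 in APT121 arrays 1 to 4, against 7.08 (lowest), 7.22 (median) and 7.61 (highest) in wild type. All APT121 arrays lay below all wild type arrays, by a small gap. The means were 6.89 ± 0.09 in APT121 and 7.28 ± 0.19 in wild type, 1.31-fold lower in APT121 (-0.39 ± 0.10, 95% interval -0.59 to -0.18, adjusted p = 0.00316). Beside it 6 of 7 endothelial markers fell (median -0.49, with Pecam1 at -0.53 ± 0.09 and Kdr at -0.80 ± 0.09), all 7 fibroblast markers fell (median -0.52) and all 7 smooth muscle markers fell (median -0.85). Their part in the fall of Igfbp3 was not tested.

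Trpv6 (10544348) was at 4.43, 5.29, 4.40 and 4.87 in APT121 arrays 1 to 4, against 3.91 (lowest), 4.13 (median) and 4.71 (highest) in wild type. APT121 arrays 2 and 4 lay above all wild type arrays, while arrays 1 and 3 lay inside the wild type range. It averaged 4.75 ± 0.42 in APT121 and 4.20 ± 0.28 in wild type, a 1.46-fold difference (0.55 ± 0.17, 95% interval 0.19 to 0.91, adjusted p = 0.0135). Without APT121 array 2 the difference was 0.36 (adjusted p = 0.0744), and with only wild type arrays 5 to 8 it was 0.50 (adjusted p = 0.0597), so the call rests on array 2 and on the wild type arrays used. The highest wild type array was array 6, the one with a high sum of seminal vesicle markers. These sums were 10.60, 14.13, 13.45 and 13.79 in APT121 arrays 1 to 4, so that arrays 2 and 4 were high in both measures while array 3 had a high sum and the lowest Trpv6 of the 4. Without wild type array 6 the difference of Trpv6 was 0.62 (adjusted p = 0.00407), and the part of the seminal vesicle transcripts in the APT121 values was not tested.

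Vdr, Rxra, Cyp27a1 and Trpv6, the genes that rose, all had their lowest APT121 value in array 3. That array also had the highest sums of myeloid (10.89), smooth muscle (13.11), fibroblast (11.55) and basal markers (8.65) among the APT121 arrays. Without array 3 the differences were 1.15 for Vdr, 0.71 for Rxra, 2.45 for Cyp27a1 and 0.66 for Trpv6. With 4 arrays this order is a description. Exact permutation tests over all 495 groupings of the arrays (two-sided, not adjusted) gave p = 0.00202, the smallest they can give, for Vdr, Rxra and Cyp27a1, p = 0.00606 for Igfbp3 and p = 0.0202 for Trpv6, and p = 0.691 for Cyp2r1, p = 0.115 for Cyp27b1, p = 0.0727 for Lrp2 and p = 0.182 for Cubn.

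**Figure D3:**
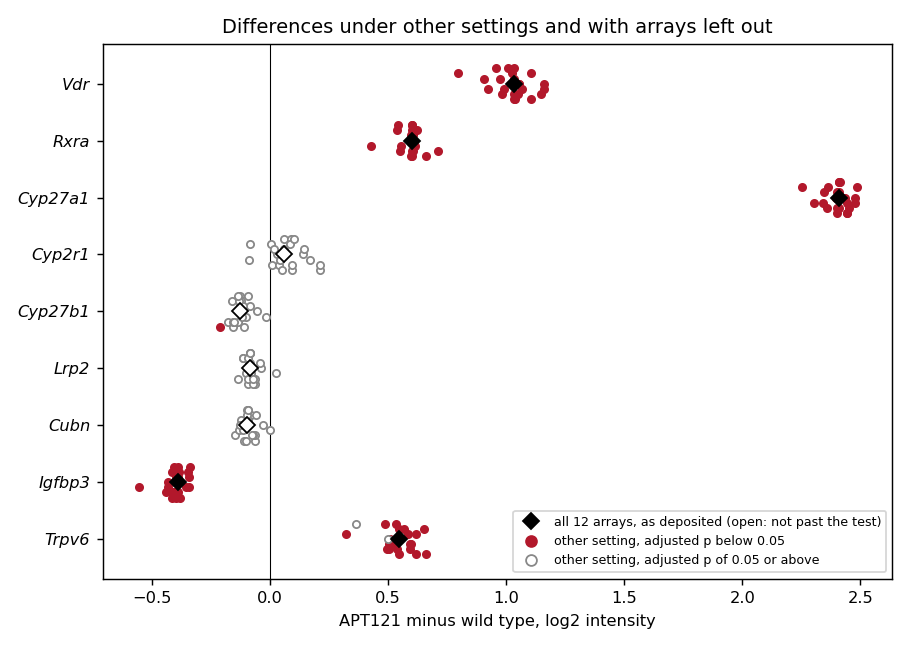
Differences of the 9 genes, APT121 minus wild type in log2 intensity, with all 12 arrays (diamonds) and under the other settings tried (circles: other scalings, filters and fits, other sets of wild type arrays, and each array left out in turn); filled symbols passed an adjusted p of 0.05. Vdr ran from 0.80 to 1.16, Rxra from 0.43 to 0.71, Cyp27a1 from 2.25 to 2.48 and Igfbp3 from -0.56 to -0.34, all filled, while Trpv6 has 2 open circles and Cyp27b1 1 filled circle.

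The genes closest in pattern to Vdr and to Cyp27a1 were found by the root mean square distance over the 12 arrays, after each gene's wild type mean was subtracted, among 19934 other genes. Closest to Vdr were Enc1 (distance 0.12, difference 0.90 ± 0.11), an actin-binding Kelch protein gene, Ppip5k1 (0.12, difference 1.02 ± 0.12), an inositol phosphate kinase gene, and Ano6 (0.13, difference 1.00 ± 0.11), a membrane scramblase gene. Closest to Cyp27a1 were Zfp185 (distance 0.18, difference 2.60 ± 0.10), a LIM domain gene, Lmo4 (0.18, difference 2.26 ± 0.09), a LIM-only transcription cofactor gene, and Ccne2 (0.18, difference 2.45 ± 0.11), the cyclin E2 gene. The measure picks genes for a like difference, so their differences carry no test of likeness.

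Around these genes, 66 others of the pathway were listed by role, and 56 were measured, of which 19 rose and 14 fell (median difference -0.040, against -0.095 for all genes). The balance turned with scaling, with 17 higher and 18 lower after median centring and 15 higher and 17 lower after a repeated quantile normalisation. Among coactivators and other partners of the receptor more genes were higher than lower under each of the 3 scalings. Of 13 measured, 9 rose and 0 fell, with a median of 0.30, beside 22.8% of all genes higher. After median centring 8 rose and 1 fell, and after a repeated quantile normalisation 5 rose and 1 fell, in both Ncoa1 (-0.21, adjusted p = 0.0312, and -0.34, adjusted p = 8.84e-04), a p160 coactivator gene named after its values were seen. At an unadjusted p of 0.05 limma had 0 of the 13 lower, and 0 were lower after adjustment in a robust fit with a variance trend. Ncoa1 missed that unadjusted limit only just as deposited, at -0.16 ± 0.08 (95% interval -0.33 to 1.99e-06, limma adjusted p = 0.0849). Baz1b, a chromatin remodelling subunit that has been found with the human receptor, was at 9.18, 9.38, 9.26 and 9.22 in APT121 arrays 1 to 4, against 7.88 to 8.23 in wild type, and rose 2.25-fold (1.17 ± 0.07, adjusted p = 1.95e-09). The p160 coactivator gene Ncoa3 rose by 0.88 ± 0.08 (adjusted p = 9.09e-08) and the acetyltransferase gene Crebbp by 0.82 ± 0.09 (adjusted p = 6.21e-07). The other retinoid X receptors differed by 0.30 ± 0.08 for Rxrb, which passed (adjusted p = 0.0069), and by -0.15 ± 0.08 for Rxrg, which did not (adjusted p = 0.136).

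Among the other enzymes and their redox partners, 1 of 6 rose and 1 fell (median 0.10). Sc5d, a sterol desaturase that makes the precursor from which skin forms vitamin D, rose by 0.52 ± 0.09 (adjusted p = 1.20e-04). Fdx1, the ferredoxin that passes electrons to mitochondrial P450 enzymes such as Cyp27a1, differed by 0.18 ± 0.07 (adjusted p = 0.0572). Cyp3a11, a liver enzyme that also breaks down vitamin D, differed by -0.15 ± 0.06 (adjusted p = 0.0400) at a mean of 2.38 in APT121 and 2.53 in wild type, and lost its call in 12 of 22 other settings.

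Of 5 measured genes that work with megalin and cubilin, 2 rose and 1 fell (median -0.12), with 2 higher and 2 lower after median centring and 2 higher and 3 lower after a repeated quantile normalisation. Myo6, the myosin that moves endocytic vesicles, rose by 0.61 ± 0.08 (adjusted p = 7.79e-06) and Gipc1, its adaptor, by 0.29 ± 0.07 (adjusted p = 0.0016). Amn, the amnionless gene whose product anchors cubilin, fell by 0.32 on the log2 scale (SE 0.11, adjusted p = 0.0225). Its call was lost when APT121 array 2 was left out (adjusted p = 0.0781), when array 4 was (adjusted p = 0.0794), when wild type arrays 5, 6 and 7 were (adjusted p = 0.0948) and when only wild type arrays 1 to 4 were used (adjusted p = 0.0740). Dab2, an adaptor of megalin, differed by -0.12 ± 0.08 (adjusted p = 0.203) and passed only after a repeated quantile normalisation among the 3 scalings (-0.27, adjusted p = 0.00788).

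Of 9 other genes of calcium transport, 3 rose and 2 fell (median -0.11), with 3 higher and 4 lower after median centring and 3 higher and 1 lower after a repeated quantile normalisation. S100a10 and Anxa2, whose products form a complex known to bring TRPV5 and TRPV6 channels to the membrane, were both well apart between genotypes. S100a10 was at 11.25, 10.95, 10.94 and 11.03 in APT121 arrays 1 to 4, against 8.72 to 9.20 in wild type, a 4.20-fold rise (2.07 ± 0.09, adjusted p = 1.63e-11). Anxa2 was at 9.46, 9.23, 9.38 and 9.60 in APT121, against 7.12 to 7.61 in wild type, a 4.08-fold rise (2.03 ± 0.09, adjusted p = 3.44e-11). Both genes are active in many cell types outside calcium transport. The plasma membrane calcium pump gene Atp2b1 rose by 0.42 ± 0.06 (adjusted p = 1.85e-05), while Calb2, the calretinin gene (-0.34 ± 0.09, adjusted p = 0.00459), and Kl, which encodes a co-receptor of the hormone Fgf23 (-0.27 ± 0.06, adjusted p = 0.00239), fell at low intensities. Calb2 did not pass after a repeated quantile normalisation (adjusted p = 0.0503). The calbindin genes S100g (-0.25 ± 0.11, adjusted p = 0.0584) and Calb1 (-0.11 ± 0.11, adjusted p = 0.372), vitamin D targets in gut and kidney, did not pass.

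Other known targets of the receptor, from several tissues and from mouse and human cells, moved both ways. Of 23 measured, 4 rose, 10 fell and 9 did not pass, with a median of -0.12, beside 22.8% of all genes higher and 30.0% lower. After median centring 3 rose and 10 fell, and after a repeated quantile normalisation 4 rose and 12 fell. The list did not separate genes that the receptor raises from genes that it lowers. Spp1, Bglap and Cdkn1a were listed but not measured. The thioredoxin inhibitor gene Txnip was at 11.08, 11.17, 11.04 and 11.76 in APT121 arrays 1 to 4, against 9.53 to 10.53 in wild type, a 2.50-fold rise (1.32 ± 0.19, adjusted p = 3.07e-05). Hpgd, which breaks down prostaglandins and is raised by calcitriol in human prostate cells, rose 1.87-fold (0.91 ± 0.08, adjusted p = 5.80e-08), and the thioredoxin reductase gene Txnrd1 rose by 0.65 ± 0.09 (adjusted p = 1.30e-05). Tgfb2, a growth-restraining factor, was at 5.36, 5.68, 5.49 and 5.26 in APT121, against 6.58 to 7.11 in wild type, and was 2.72-fold lower in APT121 (-1.44 ± 0.11, adjusted p = 1.38e-08). Igfbp5, another binding protein of insulin-like growth factors, was 1.84-fold lower (-0.88 ± 0.12, adjusted p = 2.15e-05), and Bmp6 differed by -0.41 ± 0.09 (adjusted p = 0.00114). Ptgs2, named after its values were seen, differed by 1.18 ± 0.77 and did not pass (adjusted p = 0.207). It was at 4.29, 10.07, 4.49 and 4.39 in APT121 arrays 1 to 4, against 4.20 to 5.08 in wild type, so array 2 alone carried the difference, which was -0.23 without it (adjusted p = 0.163).

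**Figure D4:**
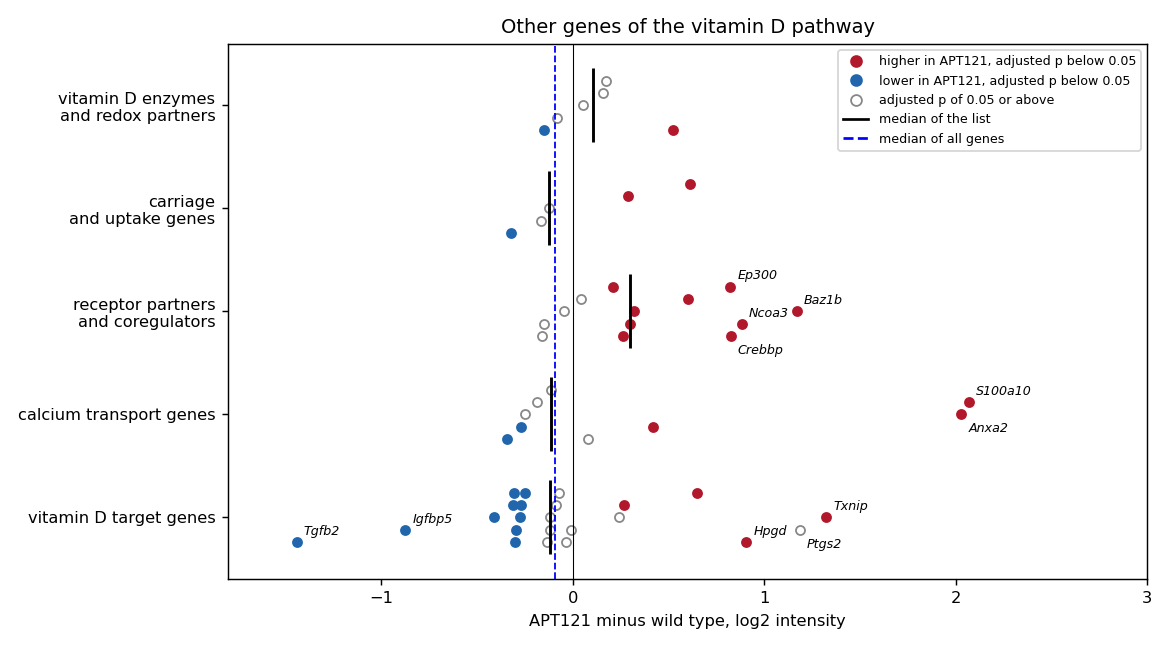
Differences of the 56 other measured genes of the vitamin D pathway, APT121 minus wild type in log2 intensity, by list; filled points passed an adjusted p of 0.05 (red higher, blue lower), black bars are list medians and the dashed line is the median of all genes at -0.095. The receptor partners and coregulators have 9 of 13 points filled red and none blue, while the target genes have 4 red and 10 blue; with a repeated quantile normalisation the partners have 5 higher and 1 lower.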

How the data were processed

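RNA pools of anterior prostate from 4 APT121 and 8 wild type groups of 2 mice were hybridised to Affymetrix arrays. The deposited values are RMA intensities on a linear scale, 1 for each transcript cluster in each array; the authors' method (background correction, quantile normalisation, summarisation) is known per the submitters' processing notes. The sources used here name no software version and no genome build. RMA equalises the distributions of probe values between the arrays before they are summarised, which hides any shift of total RNA per cell. The summarised values can still differ in distribution, and array medians ran from 32.1 to 33.7. P-values measure the spread between pools.

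Log2 of the values was taken here. The platform annotation gave 1 symbol to 21780 of 28815 clusters, several to 1605 and none to 5430; the first group gave 19935 genes, using the highest-mean cluster where a gene had more than 1. No filter on low values was applied. APT121 was set against wild type by limma (version 3.58.1, R 4.3.3), with lmFit and eBayes on genotype alone, two-sided, with Benjamini-Hochberg adjustment over all genes; SAM, which the submitters' design text names, was not run. The fit was tested on simulated data. The marker sums are log2 of summed intensities.

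The genes and lists were chosen with earlier results of these data known. Named were the 9 measured genes, up to 3 genes past the threshold in each direction of each pathway list, and the 3 nearest patterns to Vdr and Cyp27a1; others were named after their values were seen. Replicate numbers did not pair the arrays (correlations of same-numbered deviations across genes 0.067, 0.059, 0.064 and -0.026).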

Additional observations from a re-analysis of the deposited data

Results flagged for a closer look

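Igfbp3 in APT121 array 4 stood apart from the other 3 APT121 arrays, at 6.76 with the nearest of the others at 6.91. Without that array the difference of Igfbp3 was -0.34 (adjusted p = 0.0153). Ncoa3 in wild type array 5 stood below the other 7 wild type arrays, at 6.96 with the nearest at 7.10. These were 2 of 56 groups of values examined in 28 genes, and chance alone marks about 1 group in 20.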

How the results depend on the processing

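Vdr, Rxra, Cyp27a1 and Igfbp3 kept their direction and call in all 24 other settings in which each was fitted, and with the exact permutation test. With only wild type arrays 5 to 8, Trpv6 missed the threshold (0.50, adjusted p = 0.0597), as it did without APT121 array 2, and it ran from 0.36 to 0.66 with each array left out in turn; it was not tested without the 50% of genes of lowest mean. Cyp27b1 ran from -0.21 to -0.088 with each array left out and passed without APT121 array 4. The causes were not tested. Over all genes 10527 passed, and 8979 (without APT121 array 2) to 10493 with 1 array left out. A 2-fold minimum left 1532 (1143 higher and 389 lower). Without the 50% of genes of lowest mean 3770 rose and 3326 fell, against 4540 and 5987 with all genes. Of the pathway lists, 33 genes passed with all arrays, 28 (17 higher, 11 lower) without APT121 array 4, and 27 (17 higher, 10 lower) without wild type arrays 5, 6 and 7; 7 were lower without the 50% of genes of lowest mean. Among these calls the higher share was 57.6% as deposited, 48.6% after median centring (17 higher, 18 lower) and 46.9% after repeated quantile normalisation (15 higher, 17 lower). With the replicate block, which here compares APT121 with wild type arrays 1 to 4 of the same number, 8814 genes passed and the same 5 vitamin D genes did, with Vdr at 1.16, Rxra at 0.61, Cyp27a1 at 2.48, Igfbp3 at -0.43 and Trpv6 at 0.59 (adjusted p = 0.0345). Median centring moved the median difference of all genes to -0.15 and repeated quantile normalisation to -0.055. Arrays give no detection calls here, which limits the 4 genes of low intensity most.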

Other observations

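Wild type arrays 1 to 4 and 5 to 8 differed from each other in some genes of the other pathway lists, with no label that says why. Txnip was at 10.15 to 10.53 in wild type arrays 1 to 4 and at 9.53 to 9.62 in arrays 5 to 8. Its rise in APT121 was 0.96 against the first set and 1.68 against the second. Crebbp was at 8.64 to 8.83 in arrays 1 to 4 and 8.40 to 8.48 in arrays 5 to 8. The rise of Crebbp was 0.68 against the first set and 0.97 against the second. Baz1b (8.15 to 8.23 and 7.88 to 8.11) and Atp2b1 (8.67 to 8.73 and 8.58 to 8.60) were also apart. The share of all genes apart between these sets was not counted. Vdr was at 4.84 to 5.42 in arrays 1 to 4 and 5.27 to 5.52 in arrays 5 to 8, and its difference was 1.16 against the first set and 0.91 against the second. Cyp2r1 was at 3.15 to 3.44 in arrays 1 to 4 and 3.38 to 3.74 in arrays 5 to 8. The ranges of the sets overlapped for both Vdr and Cyp2r1. Rxra averaged 6.71 in arrays 1 to 4 and 6.73 in arrays 5 to 8.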
